A study of Capra hircus with 18 samples.

Results

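*GADD45A*, *bax*, *CASP14* and *TNFRSF1A* are 4 genes of apoptosis and the DNA damage response, and they were taken by symbol from the deposited blood RNA-seq tables of transported Spanish goats. They are 4 of the 1557 genes listed in either table. *GADD45A* was listed in both the table of 30 min transport against control (430 genes) and the table of 180 min transport against control (1247 genes), whereas *bax* (spelled in lower case in the table), *CASP14* and *TNFRSF1A* were listed in the 180 min table only. The values of these 3 genes in the 30 min goats were not analysed here, because each table lists only genes that had an unadjusted p-value under 0.05 in the authors' own comparison. For the same reason, the tests below describe how far the goats differed and are not independent evidence that a gene changed.

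A cell that is damaged or stressed can stop dividing and repair itself, or it can die by apoptosis. Apoptosis is set off either from inside the cell, where proteins of the BCL2 family open the outer mitochondrial membrane, or from the surface, where death receptors bind ligands such as TNF, and both routes lead to caspases, the proteases that take the cell apart. In blood, neutrophils are short-lived cells that die by apoptosis within days of leaving the bone marrow, and stress hormones alter both their number and their survival.

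The study measured whole-blood gene expression after road transport. Its samples were from 18 uncastrated male goats aged 8 months, raised on pasture with a grain supplement and kept from feed overnight. The control group (7 goats) was held in pens, the 30 min group (4 goats) travelled about 50 km in a livestock trailer, and the 180 min group (7 goats) travelled about 200 km. Each goat gave 1 library and goats are named below by their label numbers. Transport took place on separate days, and the day of each goat was not in the labels used here, so a difference between days was not tested. Blood is a mixture of cells, and the red cell marker list had 0 of 12 genes in either table, so that part of the tissue label was not checked. Effective library sizes, which were worked out from the deposited FPKM values, were 10443023 to 39473244 reads in control goats, 13992574 to 22855051 at 30 min and 11290309 to 34125715 at 180 min.

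All 4 genes are annotated as protein coding on the plus strand in the deposited tables. *GADD45A* (ENSCHIG00000025537) lies on chromosome 3 at 43246366 to 43250380, *bax* (ENSCHIG00000016438) on chromosome 18 at 56549193 to 56553169, *CASP14* (ENSCHIG00000018930) on chromosome 7 at 100589756 to 100600793 and *TNFRSF1A* (ENSCHIG00000012735) on chromosome 5 at 102943980 to 102955687. The genome build of these positions is not given in the sources used here. The tables note a caspase peptidase domain for *CASP14* and a death domain for *TNFRSF1A*.

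*GADD45A* encodes a growth arrest protein that is induced by DNA damage and by other cell stress, and that binds cell cycle and stress kinase proteins. Its level was higher in every goat transported for 30 min than in any control goat. Goats 21, 22, 24 and 27 had 906, 577, 766 and 673 normalized counts (reads divided by a size factor per goat), and the 7 control goats ranged from 196 to 383 with a median of 265. The groups did not overlap, and even the lowest transported goat stood above the highest control goat. The transported goats averaged 731 ± 140 normalized counts (SD, n = 4), whereas the control goats averaged 273 ± 68.2 (SD, n = 7). The group means of log2(normalized count + 1) differed by 1.43 (SE 0.19), or 2.70-fold, and the exact two-sided permutation test gave p = 0.00303, the smallest p that 4 goats against 7 allow. With limma and Benjamini-Hochberg adjustment over the 430 listed genes, *GADD45A* rose at 30 min (adjusted p = 0.0283, and 0.00289 to 0.0778 over 17 alternatives, with a call in 12 of them).

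*GADD45A* was thus 1 of 1 of these genes called higher at 30 min, beside 1.86% of all listed genes, and 1 of 1 without overlap on the higher side, beside 6.51% of all listed genes. Nothing is read from these shares, since the listing used the same contrast. The median difference of the 430 genes was -0.92 on the log2 scale, so that *GADD45A* rose in a table where 303 genes had a negative difference.

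At 180 min *GADD45A* was high in most goats but spread widely. Goats 10, 11, 13, 14, 15, 16 and 17 had 119, 730, 450, 571, 2190, 1296 and 515 normalized counts, and the same 7 control goats ranged from 224 to 402 with a median of 285 in this table's scaling. Goat 10 was below every control goat, while the other 6 goats were above all of them. The transported goats averaged 839 ± 694 (SD, n = 7) and the control goats 302 ± 65.6 (SD, n = 7). The log2 difference was 1.05 (SE 0.51), and the exact permutation test gave p = 0.0624, which missed the threshold of 0.05. In limma it missed the threshold too (adjusted p = 0.0821, and 0.0308 to 0.140 over 20 alternatives, with a call in 1 of them). Other tests did pass the unadjusted threshold, with p = 0.0490 by exact permutation of FPKM, 0.0262 by the exact Mann-Whitney test, 0.00467 by edgeR with deposited size factors (log2 difference 1.47), 0.0349 by edgeR with TMM and 0.0171 by DESeq2. Without goat 10, the mean was 959 ± 676 (SD, n = 6), the log2 difference was 1.44 (SE 0.38), the exact permutation test gave p = 0.000583 and limma an adjusted p of 0.0308.

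**Figure D1:**
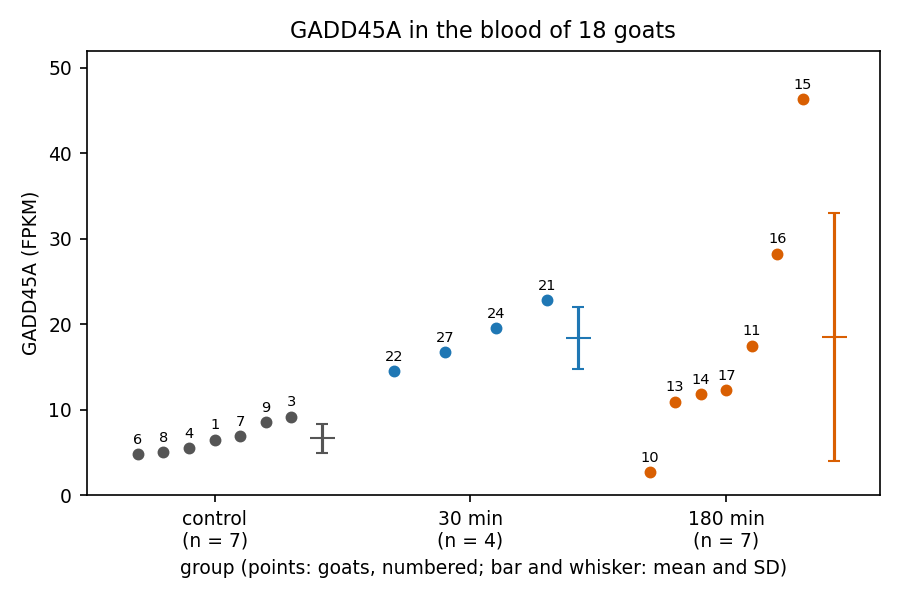
*GADD45A* level in FPKM for each goat in the control, 30 min and 180 min groups, with 1 numbered point per goat and the group mean and SD as a bar and whisker. The 4 goats at 30 min sit together between 14.5 and 22.8 FPKM above all control goats, whereas the 7 goats at 180 min run from 2.72 to 46.3 FPKM and goat 10 is the lowest of all.

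The deposited FPKM values (reads scaled to gene length and library size) use 1 library size per goat and therefore allowed the transport times to be set side by side. *GADD45A* averaged 18.6 ± 14.5 FPKM (SD, n = 7) at 180 min, 18.4 ± 3.58 FPKM (SD, n = 4) at 30 min and 6.65 ± 1.71 FPKM (SD, n = 7) in control. Of the 180 min goats, 2 were above every 30 min goat, 4 were below every one and 1 was within their range. The difference in mean log2(FPKM + 0.1), 180 min minus 30 min, was -0.38 (SE 0.50) and was not detectable with these goats (exact permutation test, p = 0.612). Without goat 10 it was 0.0065 (exact permutation test, p = 0.986). The spread on that scale was an SD of 1.27 at 180 min and 0.28 at 30 min. A test of the difference between the spreads was not run. Both transport groups were compared with the same 7 control goats, so the *GADD45A* differences at 30 and 180 min are not independent of each other.

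*TNFRSF1A* encodes TNF receptor 1, the death domain receptor through which TNF can signal either for inflammation or for cell death. It rose at 180 min. Goats 10, 11, 13, 14, 15, 16 and 17 had 3188, 4186, 2717, 2057, 3620, 2931 and 2467 normalized counts, and the control goats ranged from 1049 to 2695 with a median of 1636. All 7 transported goats were above the control median and 5 of 7 were above every control goat, so the groups overlapped only through goats 14 and 17. The means were 3024 ± 717 (SD, n = 7) and 1746 ± 621 (SD, n = 7). The log2 difference was 0.83 (SE 0.23), or 1.78-fold, with p = 0.00466 in the exact permutation test and an adjusted p of 0.0470 in limma (0.0301 to 0.0787 over 20 alternatives, with a call in 10 of them). With other scalings the *TNFRSF1A* difference was smaller, at 0.38 with edgeR and TMM, where it missed the unadjusted threshold, and at 0.40 with DESeq2, where it passed. *TNFRSF1A* did not depend on goat 10, without which the log2 difference was 0.81 (exact permutation p = 0.00874).

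TNF receptor 1 is found on neutrophils and monocytes among other cells, and some markers of several blood cell types were listed at 180 min. Listing needed an unadjusted p-value under 0.05 in the same contrast, so sums over listed markers tend to part the groups by that choice. Markers that were not listed could not be seen. Over all 1247 listed genes limma called 16.6% higher and 7.14% lower. Of 25 neutrophil markers, 8 were listed and 6 were called higher, and their summed level was 93764 to 232300 normalized counts in transported goats and 33384 to 106091 in control goats. Of 11 monocyte markers, 3 were listed and 2 were called higher (sums of 9216 to 31348 against 3052 to 10453), and of 20 T cell markers, 7 were listed and 3 were called lower (4583 to 9784 against 8663 to 16912). Also listed at 180 min were 1 of 12 B cell markers (*MS4A1*, 1635 to 4769 against 3759 to 5196), 1 of 11 NK cell markers (*NKG7*, called higher, 1992 to 3305 against 1053 to 2252), 1 of 9 platelet markers (*GP1BB*, 504 to 20030 against 157 to 3269) and 1 of 8 eosinophil markers (*ADORA3*, 73.9 to 594 against 211 to 1451). In bulk blood, more cells of a type and more RNA per cell cannot be told apart, and the part of these cell types in the results of the 4 genes was not tested. At 30 min 0 of the 25 neutrophil, 11 monocyte, 20 T cell, 9 platelet, 8 eosinophil and 28 epidermis markers were listed, 1 of 11 NK cell markers was (*NCR3*, 161 to 196 against 185 to 684), and 4 of 12 B cell markers were listed with sums of 8528 to 11998 normalized counts against 8868 to 28276 (differences of 2 of the 4 turned positive under median centring), beside the rise of *GADD45A*.

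*bax* encodes the BCL2 family protein that forms pores in the outer mitochondrial membrane. Goats 10, 11, 13, 14, 15, 16 and 17 had 2501, 1122, 928, 505, 709, 767 and 910 normalized counts at 180 min, and the control goats ranged from 407 to 828 with a median of 565. Goat 10 was far above the other goats, 4 of 7 goats (10, 11, 13 and 17) were above all control goats, and goat 14 was below the control median. The means were 1063 ± 663 (SD, n = 7) and 592 ± 147 (SD, n = 7). *bax* was higher by 0.71 on the log2 scale (SE 0.30), or 1.63-fold, with p = 0.0245 in the exact permutation test. With limma the adjusted p was 0.0774, and 0.0583 to 0.176 over 20 alternatives, with a call in 0 of them, although its unadjusted limma p was 0.0465.

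The size of the *bax* difference rested partly on single goats. Without goat 10 the 180 min mean was 823 ± 212 (SD, n = 6) and the log2 difference 0.47 (exact permutation p = 0.0484). Without control goat 6 the log2 difference was 0.62 (exact permutation p = 0.0565), and without control goat 7 it was 0.65 (exact permutation p = 0.0530). When each goat was centred on the median of the listed genes, it was 0.52 (exact permutation p = 0.117).

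*CASP14* encodes caspase-14, a caspase known mainly for the maturation of skin keratinocytes rather than for apoptosis. It was the least abundant of the 4 genes and rose at 180 min. Goats 10, 11, 13, 14, 15, 16 and 17 had 189, 37.5, 69.6, 103, 65.1, 174 and 85.8 normalized counts, from 106, 32, 126, 121, 67, 217 and 143 reads. Control goats 1, 3, 4, 6, 7, 8 and 9 had 30.8, 83.5, 24.7, 18.5, 34.5, 0 and 0 normalized counts, from 41, 70, 24, 10, 61, 0 and 0 reads. Transported goats 10, 14, 16 and 17 were above all control goats, and control goat 3 was above the other 3 transported goats. The 0 reads in control goats 8 and 9 allow a level of up to 5.89 and 2.79 normalized counts (3 reads, counting error only).

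The means of *CASP14* were 103 ± 56.9 (SD, n = 7) in transported goats and 27.4 ± 28.3 (SD, n = 7) in control goats, a ratio of 3.77. On the log2(normalized count + 1) scale the groups differed by 2.87 (SE 1.02), with p = 0.00408 in the exact permutation test and an adjusted p of 0.0470 in limma (0.0235 to 0.0731 over 20 alternatives, with a call in 7 of them). Because of the goats at 0 reads, that difference changed with the pseudocount, being 3.83 with 0.1 and 1.82 with 10 in place of 1. Without goat 10 it was 2.70 (exact permutation p = 0.0146), and limma then gave an adjusted p of 0.0602. Of 28 epidermis markers, 3 were listed (*KRT14*, *DSC1* and *TGM1*), with summed levels of 433 to 1411 normalized counts in transported goats and 74.0 to 1173 in control goats. In limma 0 of them were called, beside 16.6% higher and 7.14% lower of all listed genes. *TGM1* had a log2 difference of 1.52 (limma adjusted p = 0.0552). *KRT14*, a keratin of basal skin cells, was at 0 in all control goats and at 0 to 40.9 normalized counts in transported goats (log2 difference 2.28, limma adjusted p = 0.0556). *DSC1*, a desmosome protein of the upper epidermis, had a difference of the other sign, at 0 to 0.972 normalized counts in transported goats and 0 to 25.1 in control goats (log2 difference -1.38, limma adjusted p = 0.0863). The sums were mostly *TGM1*, and the part of skin cells in the *CASP14* result was not tested.

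**Figure D2:**
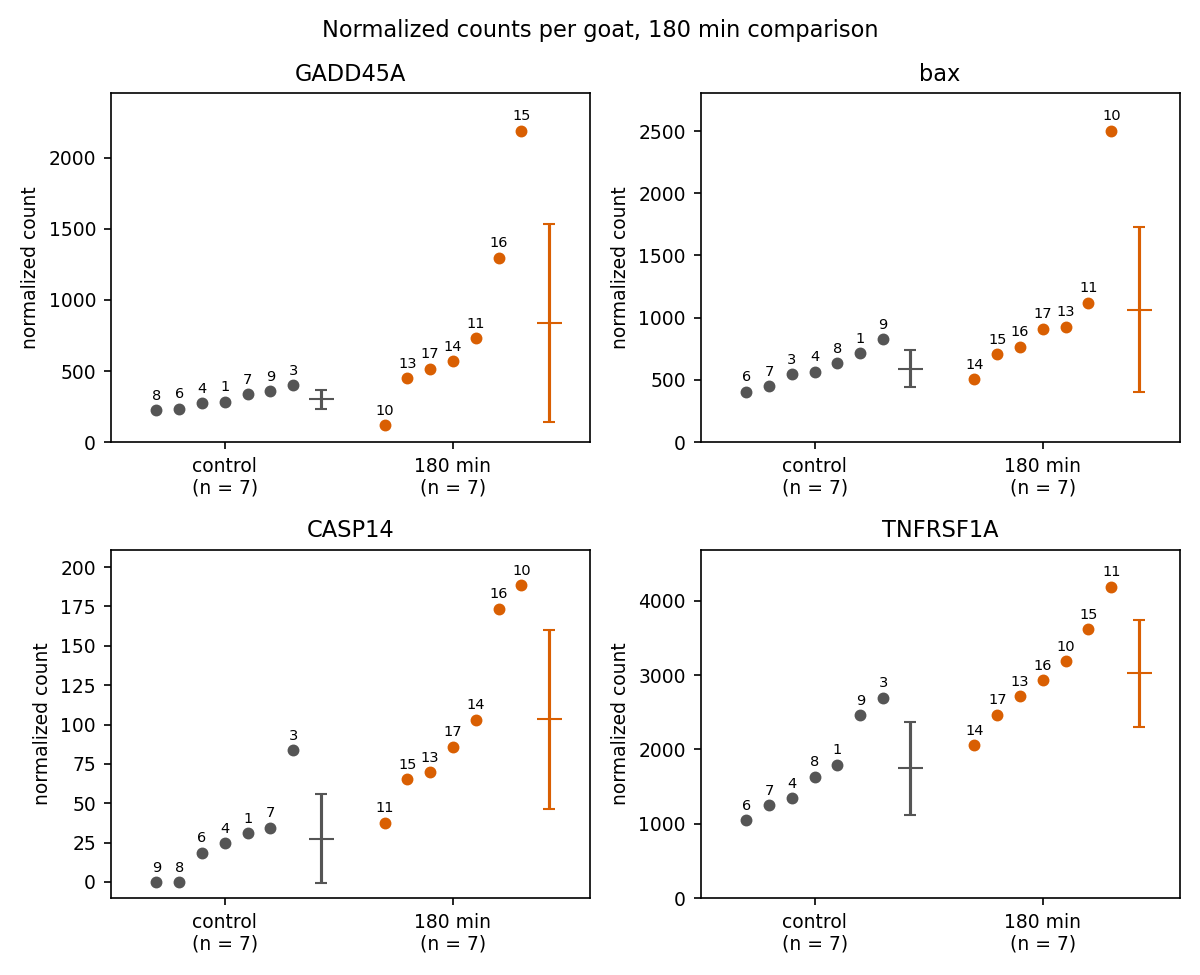
Normalized counts of the 4 genes in each control goat and each goat transported for 180 min, with 1 numbered point per goat and the group mean and SD as a bar and whisker. Goat 10 is the lowest of the 180 min goats for *GADD45A* (119) and the highest for *bax* (2501) and *CASP14* (189), and control goats 8 and 9 have 0 reads of *CASP14*.

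At 180 min, limma called 2 of the 4 genes higher (*TNFRSF1A* and *CASP14*), beside 16.6% of the 1247 listed genes, and 0 of 4 were without overlap on the higher side, beside 1.84% of the listed genes. Again nothing is read from these shares. Over the 1247 genes limma called 207 higher and 89 lower, whereas the split was 148 and 223 with median centring, 140 and 363 with edgeR and TMM and 181 and 450 with DESeq2, which moved the differences of all genes by medians of -0.19, -0.42 and -0.37. The differences of the 4 genes were positive under each of these scalings, but several were smaller and missed the threshold. With edgeR and TMM, *bax* (0.30), *TNFRSF1A* (0.38) and *CASP14* (1.42) missed the unadjusted threshold, and *bax* also missed it with DESeq2 (0.38) and with median centring (0.52). These 3 scalings rest on listed genes only. The median log2 difference over the 1247 genes was 0.68, against 1.05, 0.71, 2.87 and 0.83 for *GADD45A*, *bax*, *CASP14* and *TNFRSF1A*. Without goat 10, limma called *GADD45A* and *TNFRSF1A*, again 2 of 4, beside 17.6% of the listed genes.

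Per gene length, *TNFRSF1A* and *bax* were abundant and *CASP14* was scarce. Mean FPKM at 180 min was 111 ± 28.6 for *TNFRSF1A*, 91.6 ± 58.1 for *bax*, 18.6 ± 14.5 for *GADD45A* and 1.24 ± 0.673 for *CASP14* (SD, n = 7). In control goats it was 62.8 ± 25.9, 49.3 ± 15.2, 6.65 ± 1.71 and 0.320 ± 0.346 FPKM in the same order of genes. *TNFRSF1A* and *bax*, the neighbours at the top of that order, were within 1 SD of each other in both groups, while *GADD45A* and *CASP14* lay apart from them and from each other in control goats. This order depends on the annotated gene lengths, which were 1350, 579, 2178 and 4078 bases in the same order of genes. Without scaling to length, mean normalized counts of *bax* and *GADD45A* were 1063 and 839 at 180 min and 592 and 302 in control goats.

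The goats at 180 min did not carry the 4 genes in the same proportions. Levels above the highest control goat were found for 3 of the 4 genes in 5 goats and for 2 of the 4 genes in 2 goats, and in no goat for all 4. Goat 10 had the lowest *GADD45A* and the highest *bax* and *CASP14* of its group, and its ratio of *bax* to *GADD45A* normalized counts was 20.99. In the other goats at 180 min that ratio was 0.324 to 2.06, and in control goats it was 1.33 to 2.82. Goat 10 also had the smallest effective library of its group (11290309 reads), of which 26.2% fell on listed genes (7.93% to 14.3% in the other 180 min goats and 4.22% to 9.25% in control goats), the highest neutrophil marker sum of the 14 goats (232300 normalized counts), the lowest T cell marker sum (4583), the highest epidermis marker sum (1411, with the highest *KRT14* and *TGM1* and with *DSC1* at 0) and 20030 normalized counts of *GP1BB*, a platelet receptor gene, which was 54.2% of the total of that gene over the 14 goats. Their part in the *bax*, *CASP14* and *GADD45A* values of goat 10 was not tested. The listed genes and markers were chosen by the contrast of these same goats, so shares and sums over them tend to part the groups by that choice.

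**Figure D3:**
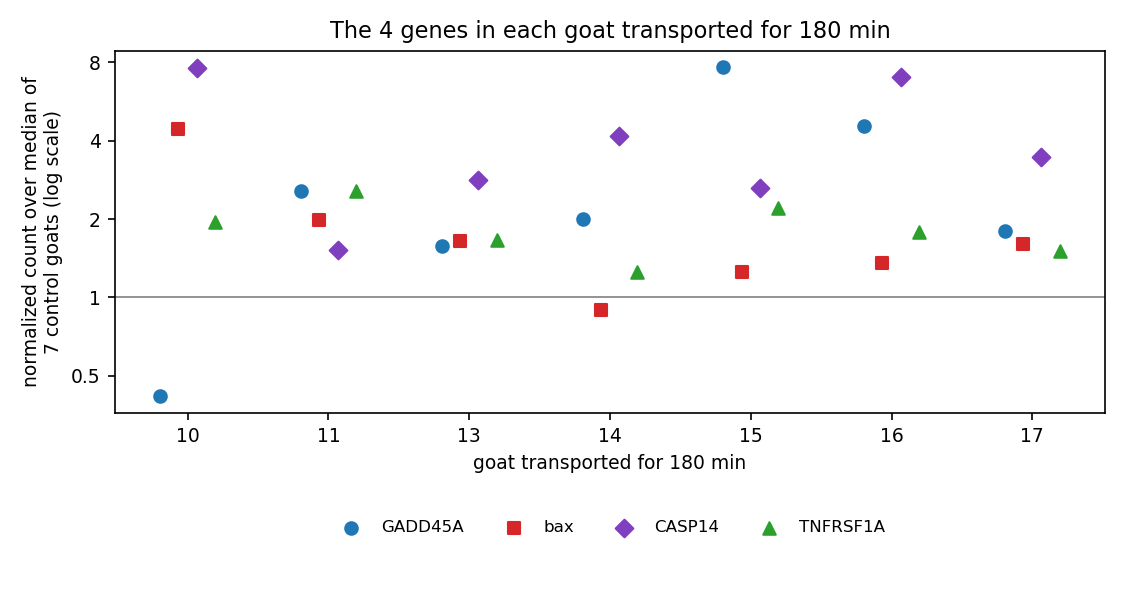
Level of each of the 4 genes in each goat at 180 min, as its normalized count over the median of the 7 control goats (log axis, with a line at 1) and 1 symbol per gene. Goat 10 is the only goat below 1 for *GADD45A* and stands highest for *bax*, while goat 14 is the only one below 1 for *bax*.

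Within groups, 20 relations were computed among the 4 genes and with the mean of the 8 listed neutrophil markers, and 0 had an adjusted p under 0.05 by exact permutation of pairings (1 had an unadjusted p under 0.05 by Pearson's r and 2 by Spearman's rho). The smallest p was for *TNFRSF1A* and the neutrophil markers in the 7 control goats (r = 0.864, exact permutation p = 0.0173, adjusted p = 0.320, and rho = 0.857, exact permutation p = 0.0238, adjusted p = 0.476), and r was 0.773 without the 2 goats farthest from the *TNFRSF1A* median. In the 180 min goats the same pair had r = 0.695 (exact permutation p = 0.0790, adjusted p = 0.320) and rho = 0.786 (exact permutation p = 0.0480, adjusted p = 0.476), and r was 0.575 without the 2 farthest goats. *GADD45A* and *bax* ran in opposite directions at 180 min with r = -0.739 (exact permutation p = 0.0718, adjusted p = 0.320) and rho = -0.61 (exact permutation p = 0.167, adjusted p = 0.476). That relation rested on goats 10 and 15, without which r was -0.032.

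The genes whose goat-to-goat pattern was most like that of each gene were found by Pearson's r on deviations from the group means. These values are a description only, because depth and cell marker levels differed between goats, and all genes of a goat come from the same library. At 30 min (11 goats, 240 genes compared), *GADD45A* was most like *SLC26A8* (r = 0.905), *ETS2* (0.834) and *C5AR1* (0.816), the receptor of complement C5a. At 180 min (14 goats, 773 genes compared), *GADD45A* was most like *GYG1* (0.942), which primes glycogen synthesis, *CEBPB* (0.934), a transcription factor of myeloid cells, and *RAB31* (0.933). *TNFRSF1A* was most like *FGR* (0.918), a kinase of myeloid cells, and *UNC13D* (0.866), a protein of granule release, was also among its closest genes. *bax* was most like *SPHK1* (0.957), *PPP4C* (0.944) and *EIPR1* (0.940), and *CASP14* was less closely matched by any gene, with *SLC35E4* (0.835), *RASGEF1A* (0.769) and *WNT9A* (0.762) leading.

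The other genes of these pathways were counted from 5 lists with 172 symbols in all. At 30 min 14 of them were listed, 4 with a positive and 10 with a negative difference, and limma called 1 higher (*GADD45A*) and 0 lower, beside 1.86% and 0.233% of all listed genes, with a median log2 difference of -0.77 beside -0.92 over all listed genes. At 180 min 20 were listed, 11 with a positive and 9 with a negative difference, and limma called 4 higher and 3 lower, beside 16.6% and 7.14% of all listed genes, with a median of 0.77 beside 0.68 over all listed genes.

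In the growth arrest and p53 response list of 28 genes, 5 were listed at 30 min and 4 at 180 min. *DDIT4*, a stress-induced inhibitor of the growth kinase mTOR, had groups without overlap at both times, beside 6.51% of all listed genes on the higher side at 30 min and 1.84% at 180 min. At 30 min its mean was 1793 ± 142 normalized counts (SD, n = 4) in transported and 596 ± 301 (SD, n = 7) in control goats, a log2 difference of 1.76 (SE 0.30) that missed the limma threshold (adjusted p = 0.0542). At 180 min *DDIT4* rose to 1915 ± 638 from 654 ± 302 (SD, n = 7 in each group), by 1.63 on the log2 scale (SE 0.34, limma adjusted p = 0.0291), and its lowest transported goat, at 1214, was above the highest control goat, at 1043. *GADD45A* differed from *DDIT4* at 180 min in that goat 10 lay below the control goats. *TP53I3*, a p53-induced gene, had the lowest difference of the list at 30 min (-0.83, limma adjusted p = 0.104).

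Of 56 DNA repair genes, 6 were listed at 30 min and 4 at 180 min, all with a negative difference except *OGG1* at 30 min under median centring (0.05), and 303 of the 430 genes listed at 30 min were negative too. The median of the 6 genes at 30 min was -0.80, and -0.11 under median centring. By the adjusted p, limma called 0 of 6 at 30 min and 1 of 4 lower at 180 min. Over all listed genes it called 0.233% and 7.14% lower at these times. *MBD4*, a glycosylase of base excision repair, had groups without overlap in both tables, beside 1.63% of all listed genes without overlap on the lower side at 30 min and 1.2% at 180 min. Its mean was 181 ± 49.0 (SD, n = 4) against 299 ± 46.3 (SD, n = 7) at 30 min, a log2 difference of -0.74 (limma adjusted p = 0.0980), and it fell at 180 min to 195 ± 70.6 from 334 ± 57.9 (SD, n = 7 in each group), a log2 difference of -0.85 (limma adjusted p = 0.0470). *NHEJ1* and *OGG1* marked the ends of the list at 30 min with log2 differences of -2.14 and -0.64. The *NHEJ1* value had an SE of 1.17, with the lowest transported goat at 0 normalized counts and medians of 19.1 in transported and 35.3 in control goats. *XRCC5*, a subunit of the Ku heterodimer that binds broken DNA ends, had the smallest difference at 180 min (-0.55, limma adjusted p = 0.104).

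Of 21 BCL2 family genes, 0 were listed at 30 min and 3 at 180 min. By the adjusted p limma called 0 of these 3, beside 16.6% higher and 7.14% lower of all genes listed at 180 min. Beside *bax* (0.71) stood *BCL2L15*, with a log2 difference of 1.40 (limma adjusted p = 0.0540), and *BAK1*, the other main pore-forming member, with -0.60 (limma adjusted p = 0.0523), where the transported goats ranged from 274 to 400 normalized counts and control goats from 357 to 785. *bax* and *BAK1* thus had differences of opposite sign. Of 29 caspases and their regulators, 0 were listed at 30 min and 2 at 180 min. These were *CASP14* and *NLRP3*, an inflammasome sensor, with a log2 difference of 1.43 (limma adjusted p = 0.0974), and *CASP14* was the only caspase listed.

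Of 39 genes of death receptors and their signalling, 3 were listed at 30 min and 7 at 180 min. *FasL*, the ligand of the death receptor FAS, had groups without overlap at 30 min (beside 6.51% of all listed genes), with 252 ± 122 normalized counts (SD, n = 4) against 83.7 ± 38.6 (SD, n = 7) and a log2 difference of 1.60 (limma adjusted p = 0.0757). *TNF*, the ligand of *TNFRSF1A*, was listed at 30 min with 40.1 ± 32.3 against 113.7 ± 52.6 normalized counts (limma adjusted p = 0.103) and was not in the 180 min table. At 180 min limma called *TNFRSF1A* and *LTBR*, the lymphotoxin beta receptor, higher and *TNFRSF25* and *OTULIN* lower, 2 of 7 each way beside 16.6% and 7.14% of all listed genes. *LTBR* had a log2 difference of 1.14 (limma adjusted p = 0.0411). *TNFRSF25*, a death domain receptor found mainly on lymphocytes, fell without overlap (beside 1.2% of all listed genes) to 427 ± 145 from 848 ± 98.9 (SD, n = 7 in each group), a log2 difference of -1.05 (limma adjusted p = 0.0295), beside the lower T cell marker sums given above. *TNFRSF1A* and *TNFRSF25*, both receptors with a death domain, thus moved in opposite directions at 180 min.

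**Figure D4:**
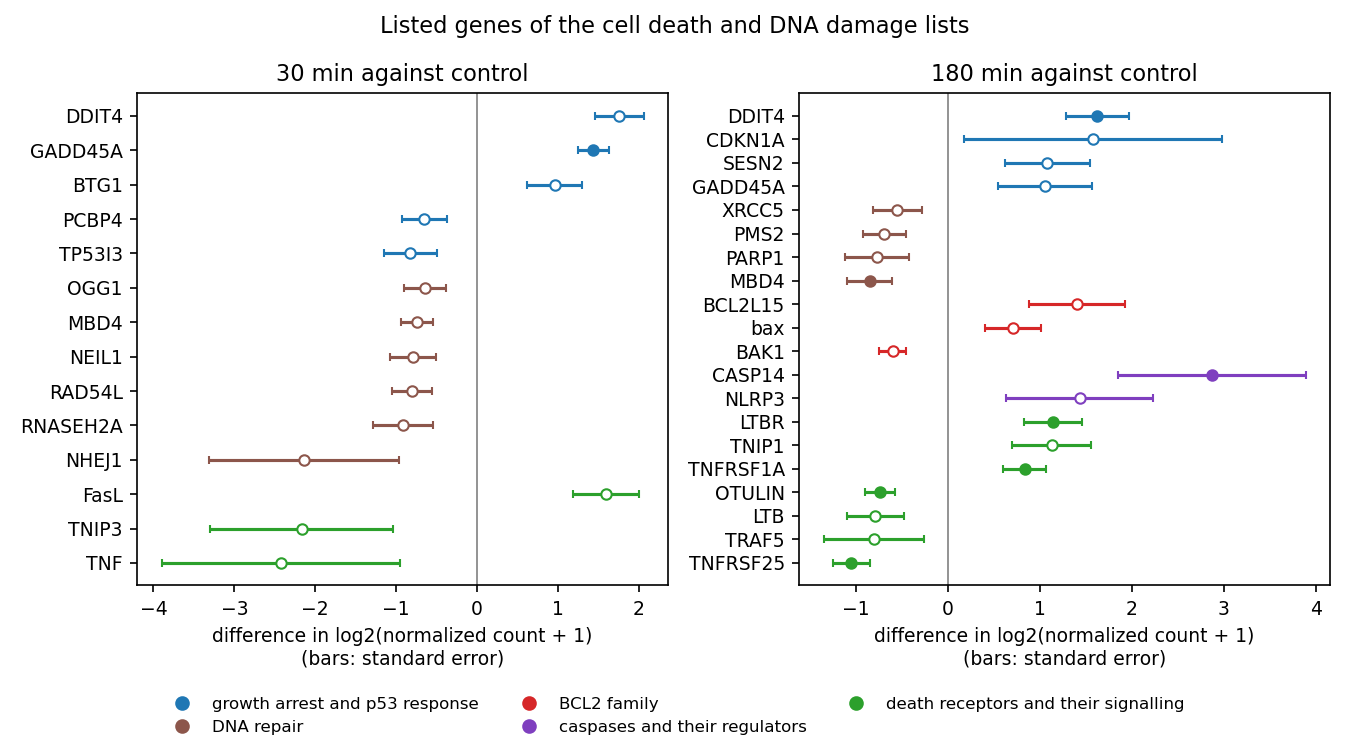
Log2 difference (transported minus control, with its standard error) of each listed gene of the 5 pathway lists at 30 min and at 180 min, coloured by list and filled where the limma adjusted p was under 0.05. With the deposited scaling DNA repair genes lie below 0 in both tables (*OGG1* at 30 min turns to 0.05 under median centring), whereas *GADD45A*, *bax*, *CASP14* and *TNFRSF1A* lie above 0.

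When each goat was left out in turn, *GADD45A* at 30 min had a log2 difference of 1.32 to 1.54 and kept p under 0.05 in all 11 exact permutation tests. *CASP14* (2.26 to 3.33) and *TNFRSF1A* (0.72 to 0.95) did so in all 14, *bax* (0.47 to 0.86) in 12 of 14, and *GADD45A* at 180 min (0.74 to 1.44) passed in 1 of 14, the one without goat 10.

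**Figure D5:**
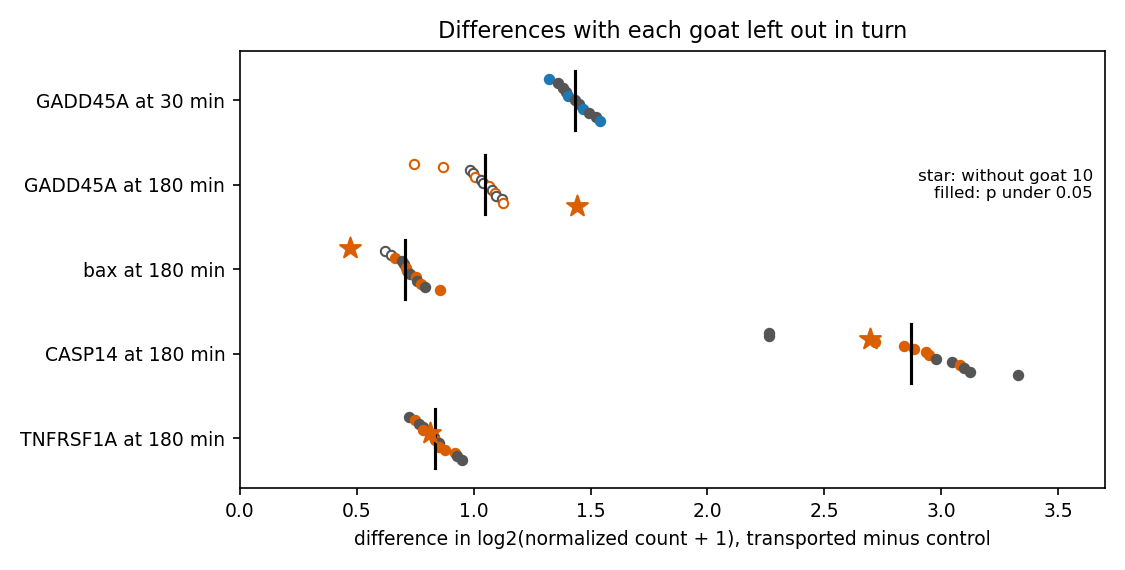
Log2 difference (transported minus control) of each gene with each goat left out in turn, with 1 point per goat left out, filled where the exact permutation p was under 0.05, a star for goat 10 and a vertical line for the value with all goats. The star stands apart for *GADD45A* at 180 min (1.44) and for *bax* (0.47), and lies among the other points for *TNFRSF1A* (0.81).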

How the data were processed

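Blood RNA from 18 goats was sequenced as 1 library each. The goats within a group are separate animals and were taken as replicates. According to the methods of the study, the authors cleaned reads with fastp, aligned them to a goat genome with HISAT2 and compared groups with DESeq2. Those methods also name edgeR, both for TMM scaling of the counts and for finding differentially expressed genes. The counting tool and genome build are not given in the sources used here. The deposited tables hold raw read counts per gene, the deposited normalized counts (a signal made by the authors by dividing each count by a size factor per goat, set separately in each table) and the deposited FPKM values. They also hold the authors' log2 fold changes and p-values, which were not used for any result. The authors' p-value was read to find out which genes are listed, and 0 genes had one at or over 0.05. Since the tables hold called genes only, count models could not estimate scaling or dispersion from unchanged genes.

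The 4 genes were tested by exact permutation of goats, two-sided, on mean log2(normalized count + 1) (numpy 2.4.6), with their p-values not adjusted. Calls over each table used limma 3.58.1 (R 4.3.3) on the same values with Benjamini-Hochberg adjustment at 0.05. FPKM values with 0.1 added were used between transport times. The limma step was tested on simulated data. Alternatives were other pseudocounts (0.1 and 10), FPKM, median centring (each goat's median over listed genes set to 0), a minimum mean of 10 normalized counts, an exact Mann-Whitney test, limma with a variance trend, edgeR 4.0.16 with deposited or TMM scaling, DESeq2 1.42.0 and leaving out each goat. An unadjusted p for the calls was added after seeing the data.

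The 4 genes, the 5 pathway lists and the marker lists (neutrophils, monocytes, T cells, B cells, NK cells, red cells, platelets, eosinophils and epidermis) were chosen with earlier results of these data known. Genes named with values are the 4 genes, those of a pathway list without overlap between groups, and the highest and lowest difference of each pathway list and table. That rule does not cover cell type markers, and *OTULIN* and the markers named were chosen after their values were seen. For likeness, the 3 symbols with the highest r were named, except 1 that is not reported here. All 4 symbols matched the RefSeq gene table of assembly ARS1.2, which was used for names only. At the depth of these libraries the lowest nonzero *CASP14* count was 10 reads, and intervals from counts cover counting error only.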

Additional observations from a re-analysis of the deposited data

Results flagged for a closer look

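Of 10 groups of goats tested for 1 goat apart from the rest, 2 were picked out. Chance picks out about 1 in 20 if values are normally distributed, which was not checked for these normalized counts. The groups are not all separate, because the control goats were tested for *GADD45A* in both tables. *bax* in goat 10 at 180 min (2501 normalized counts) stood above the next goat, at 1122, by 0.691 of its group's range. *CASP14* in control goat 3 (83.5 normalized counts, from 70 reads) stood above the next control goat, at 34.5, by 0.586 of its group's range. No cause of either value was tested.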

How the results depend on the processing

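*GADD45A* at 30 min kept its direction and p under 0.05 under 19 alternatives (1.32 to 2.12 on the log2 scale). At 180 min *GADD45A* passed the threshold with FPKM (1.09), the exact Mann-Whitney test (1.03), edgeR with deposited size factors (1.47), edgeR with TMM (1.05) and DESeq2 (1.08), and ranged from 0.74 to 1.44 when each goat was left out. *bax* missed it with median centring (0.52), edgeR with TMM (0.30) and DESeq2 (0.38), and ranged from 0.47 to 0.86 when each goat was left out. With edgeR and TMM, *CASP14* (1.42) and *TNFRSF1A* (0.38) also missed it, and they passed under the other 21 alternatives. TMM and DESeq2 scaling here rest on listed genes only. *GADD45A* at 180 min against 30 min ranged from -0.67 to 0.0065 when each goat was left out, with the sign turning without goat 10, and no p was under 0.05.

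At 30 min limma called 9 genes, but 16 with a pseudocount of 10, 121 with median centring, 19 with a variance trend, 23 with edgeR and deposited size factors, 17 with edgeR and TMM, 129 with DESeq2 and 198 by the unadjusted p, a rule added after seeing the data. Leaving out each goat gave 0 to 21 calls, with 0 without control goat 1 (166 by the unadjusted limma p) or goat 24 (105). At 180 min limma called 296, but 171 with a pseudocount of 0.1, 667 with edgeR and deposited size factors, 503 with edgeR and TMM, 631 with DESeq2 and 778 by the unadjusted p. Leaving out each goat gave 11 (without goat 15) to 349 calls. The cause of these changes was not tested. Median centring moved the difference of all genes by 0.69 at 30 min and by -0.19 at 180 min, and edgeR with deposited size factors and DESeq2 moved it by medians of -0.13 and 0.18 at 30 min. No paired analysis was possible because no goat number is shared between groups. *CASP14* had 0 reads in 2 control goats, 1 of them at the median depth of its group.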
